A study of Mus musculus with 2 samples.

Results

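The replication-dependent histone genes were taken as every gene of the deposited expression table whose symbol begins with Hist1h, Hist2h, Hist3h or Hist4h, which gave 43 genes of 16803. They comprised 5 H1, 11 H2A, 9 H2B, 8 H3 and 10 H4 genes. On mouse genome build NCBIM37 (mm9), 34 of them carried Hist1 symbols and lay on chromosome 13, 6 carried Hist2 symbols on chromosome 3, 2 carried Hist3 symbols on chromosome 11 and 1 carried a Hist4 symbol on chromosome 6. Hist1h2al (chr13:51298057-51298434) lay apart from the other Hist1 genes, and values for Hist1 below go by symbol. The GENCODE vM1 annotation names 70 genes of this kind, and the 27 without a row in the table were not analysed here. Some of these are the nearest copies of genes in the table, such as Hist1h3g of Hist1h3h, so the class sums below cover the listed copies only and reads of the others could change them. The cells were of NE4C, a neural stem cell line of the mouse, grown on poly-L-lysine, and RNA was sequenced from 1 normal culture (control) and 1 culture given homocysteine thiolactone (HTL), a reactive metabolite of homocysteine that attaches to lysine residues of proteins. Neither the HTL dose nor the time of exposure is given in the labels. With 1 library a condition, every test below compares these 2 libraries, covers counting error only and does not test the treatment. In bulk RNA, fewer cells in S phase and less histone mRNA per cell cannot be told apart.

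Replication-dependent histone genes supply the core and linker histones that package newly made DNA. They lie in clusters, are switched on as cells enter S phase through the cluster coactivator Npat, and their mRNAs are unusual in ending not in a poly(A) tail but in a short stem-loop. The stem-loop is bound by Slbp, and the U7 small nuclear ribonucleoprotein, which contains Lsm10 and Lsm11, directs the cut just after it. Replacement histone genes, such as H3f3a and H3f3b, lie outside the clusters, are used throughout the cell cycle and mostly give ordinary polyadenylated mRNAs. The labels name a TruSeq RNA kit and total RNA. Such kits commonly select poly(A) RNA with oligo-dT beads, but whether this step was used is not given in the sources used here, and its part in the low levels described below was not tested.

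The stem-loop is shown because it is the feature that separates these mRNAs from the rest of the transcriptome. For 42 of the 43 genes, the 150 genomic bases of NCBIM37 after the annotated stop codon were searched on the sense strand. The search was for the histone 3′ stem-loop (16 bases), and Hist2h3c2, annotated as a pseudogene, was left out. The stem-loop was found in 38 of the 42. In some of them, such as Hist1h2aa and Hist4h4, it lay past the annotated end of the gene. Of 22313 protein-coding genes outside the clusters, 7 held a match (0.031%), among them H2afx. The forms are listed 5′ to 3′ with the stem in capitals and the loop in lower case.
24 genes of all classes but H4, as in Hist3h2ba, chr11:58762851-58762866, plus strand: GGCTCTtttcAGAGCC
4 genes, as in Hist1h3c, chr13:23836916-23836931, minus strand: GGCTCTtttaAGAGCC
5 H4 genes, as in Hist1h4d, chr13:23673819-23673834, plus strand: GGCCCTtttcAGGGCC
2 H4 genes, as in Hist1h4b, chr13:23849235-23849250, plus strand: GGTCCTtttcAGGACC
2 H4 genes, as in Hist1h4i, chr13:22132835-22132850, minus strand: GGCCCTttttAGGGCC
1 H4 gene, Hist1h4a, chr13:23852669-23852684, minus strand: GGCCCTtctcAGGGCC
No exact match lay in this window of Hist1h2al, Hist1h2an, Hist2h2bb or Hist2h2be.

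Levels of the histone cluster genes were very low in both libraries. The 2 libraries held 10350668 (control) and 9102073 (HTL) estimated reads in all, of which the 43 genes together took 156.24 and 130.41. Scaled to the total of each library, this is 15.1 and 14.3 RPM (reads scaled to a common library total). The median cluster gene had 3.0 estimated reads in control and 1.0 in HTL, against 116 and 87.0 for all genes of the table. Per transcript length, the median was 0.42 and 0.24 FPKM (fragments scaled to transcript length and to library depth), against 4.0 and 3.36 FPKM for all genes. In control 34 of the 43 lay under 1 FPKM and in HTL 37 did, against 32.4% and 34.4% of all genes. The highest was Hist3h2ba, an H2B gene, in both libraries, with 3.80 FPKM in control and 8.36 FPKM in HTL.

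**Figure D1:**
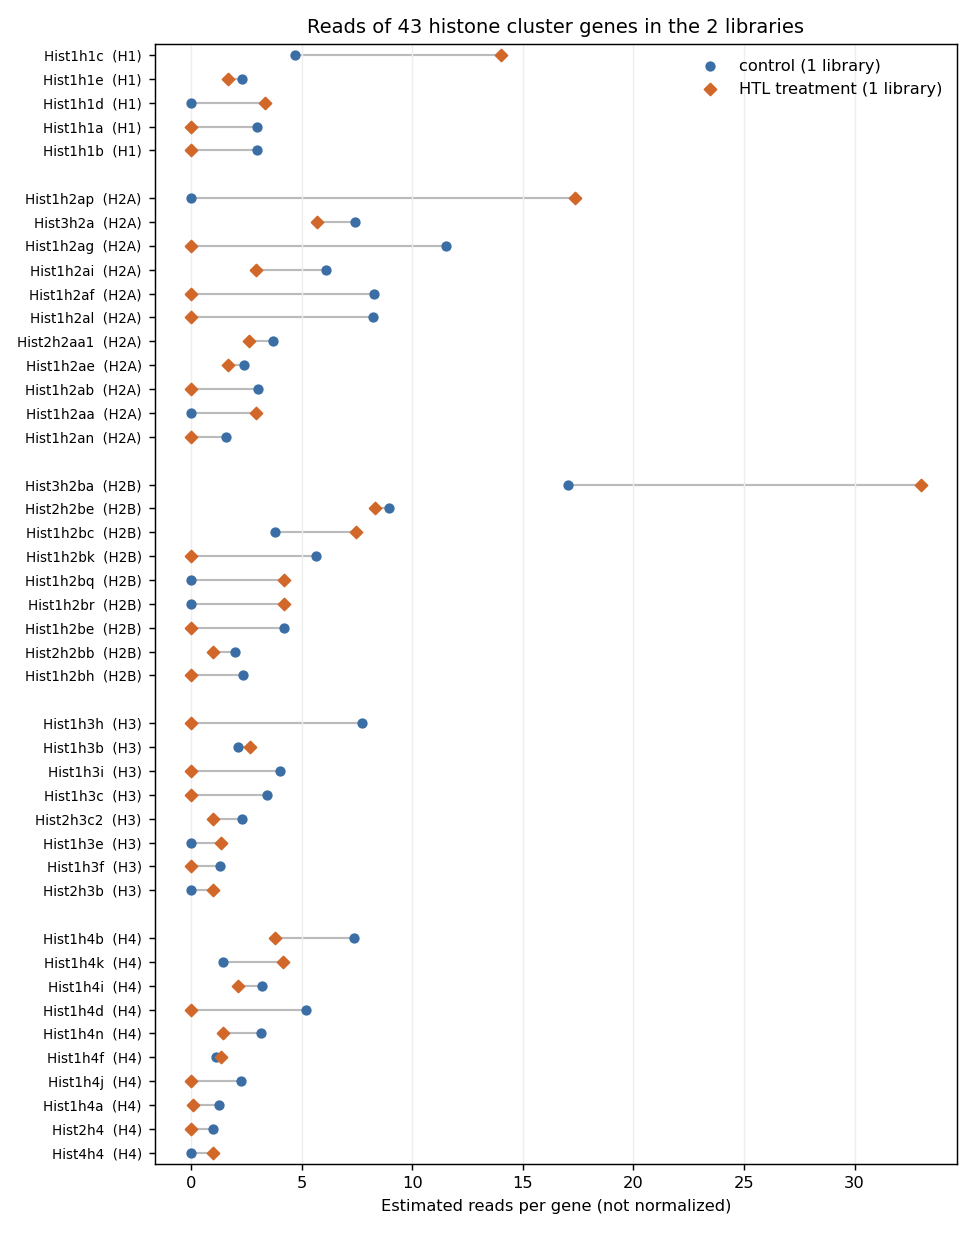
Estimated reads (horizontal axis, not normalized) of each of the 43 histone cluster genes in the control library (blue circles) and the HTL library (orange diamonds), with a grey line joining the values of a gene, grouped by histone class. Most genes lie at or under 5 reads, 17 of the 43 are at 0 in HTL and 8 in control, and Hist3h2ba reaches 17.04 and 33 reads.

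More of these genes were at 0 reads in the HTL library than in the control library. In control 8 of 43 were at 0 (18.6%) and in HTL 17 were (39.5%), against 3.64% and 7.20% of all genes of the table. Only 18 genes had reads in both libraries. Genes that are low for any reason showed the same direction, since of all 3361 genes with fewer than 10 reads in the 2 libraries together, 17.8% were at 0 in control and 34.8% in HTL. Of the 35 cluster genes under that minimum, 7 were at 0 in control and 16 (45.7%) in HTL. A count of 0 allows up to 3 reads, which is 0.290 RPM in control and 0.330 in HTL, so a gene at 0 is not shown to be silent.

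Most values were fractional, as happens when the counting program divides reads among similar transcripts. In control 31 of 43 values were more than 0.005 from a whole number (72.1%, exact 95% binomial interval 56.3 to 84.7%) and in HTL 20 of 43 were (46.5%, interval 31.2 to 62.4%). Over all 16803 genes the shares were 21.8% and 20.2%. A value of 0 cannot be fractional, and of the values above 0 the fractional share was 31 of 35 (88.6%) in control and 20 of 26 (76.9%) in HTL. Counting either library, 37 of the 43 genes had a fractional value, against 23.8% of all genes. The 6 genes with whole values in both libraries summed to 9 reads in control and 3 in HTL. Shared sequence ran along with this. The median cluster gene had 43.1% of its 50-base windows in common with another annotated cluster gene, and 5 had a coding sequence identical to that of another gene. Of the 31 genes with at least 10% of windows shared, 30 had a fractional value, and of the 11 with less, 6 did.

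Of the 43 genes, 8 had at least 10 estimated reads in the 2 libraries together and were tested, and 35 did not. A gene was called when its log2 ratio, HTL over control scaled to the library totals, was at least 1 in size and its exact binomial p, adjusted over all 13442 genes tested, was at most 0.001. By this rule 1 of the 8 was called higher, Hist1h2ap, and 0 were called lower, beside 2.81% of all tested genes called higher and 7.98% called lower (378 and 1072 genes, against 553 and 798 under another scaling, TMM, the trimmed mean of M values). The exact binomial test gave an unadjusted p under 0.05 for 4 of the 8. The share of all tested genes under that unadjusted p was not counted. Counts of this kind, here and below, thus have no background to be read against. Past 2-fold alone, 3 of the 8 were higher and 1 was lower, beside 4.72% and 12.2% of all tested genes. The median log2 ratio of the 8 was 0.46, with 5 above 0 and 3 below, and that of all tested genes was -0.14. The 8 are those with the most reads and do not stand for the 43. The 35 genes under the minimum summed to 95.43 reads in control and 40.80 in HTL, a log2 ratio of -1.02 (interval -1.59 to -0.48), and all 3361 genes under it had a log2 ratio of -0.40 (interval -0.46 to -0.35). Genes were put in that set by their reads in these libraries, so these values are a description.

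The only H1 gene with enough reads to test was Hist1h1c, which codes for the linker histone H1.2. It had 4.69 reads in control and 14 in HTL, a log2 ratio of 1.57 (95% interval 0.12 to 3.50). It lay past 2-fold, but its adjusted p of 0.0393 (exact binomial test) did not pass the threshold. The H1 sum was 13 reads in control and 19 in HTL, a log2 ratio of 0.71 (interval -0.36 to 1.87). Without Hist1h1c it was 8.31 and 5 reads, a log2 ratio of -0.46 (interval -2.45 to 1.30), so 1 gene set the sign of the class.

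Among the H2A genes, 2 near-identical copies had their reads in opposite libraries. Hist1h2ag had 11.51 reads in control and 0 in HTL, and Hist1h2ap had 0 in control and 17.37 in HTL. Against a floor of 3 reads in the library at 0, Hist1h2ap was at least 6.58-fold higher in HTL (exact binomial test, adjusted p = 8.47e-06) and was called. Hist1h2ag was at least 3.37-fold lower, and its adjusted p of 0.00157 (exact binomial test) did not pass the threshold. Hist1h2ag (chr13:22134348-22134818) and Hist1h2ap (chr13:21924926-21925444) are both on the minus strand. Their coding sequences of 393 bases differ at 3 positions counted from the A of the start codon, A18G, C24T and G387A, with the base of Hist1h2ag first, and share an unbroken run of 362 bases. The first 60 and the last 33 coding bases hold all 3 differences, in capitals. They are shown because a read within the coding sequence that misses these positions fits both genes.
Hist1h2ag, bases 1 to 60: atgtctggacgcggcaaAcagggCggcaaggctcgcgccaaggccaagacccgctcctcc
Hist1h2ap, bases 1 to 60: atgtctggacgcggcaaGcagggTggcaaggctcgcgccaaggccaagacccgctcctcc
Hist1h2ag, bases 361 to 393: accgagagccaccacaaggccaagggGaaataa
Hist1h2ap, bases 361 to 393: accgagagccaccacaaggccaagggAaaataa
Hist1h2ap also has the same coding sequence as Hist1h2ao, which has no row in the table, and all of its 50-base windows occur in another cluster gene. The nearest annotated copy of Hist1h2ag is Hist1h2ad, which differs at 2 coding bases and also has no row. A sum of the pair therefore does not cover all copies that could share their reads. Summed, Hist1h2ag and Hist1h2ap had 11.51 reads in control and 17.37 in HTL, a log2 ratio of 0.66 whose interval (-0.46 to 1.89) held 0. The single call among the 43 genes was thus of a gene whose reads could be divided with its copies.

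The third tested H2A gene, Hist3h2a, stands apart from the Hist1 copies, with 2.16% of its windows shared. It had 7.40 reads in control and 5.70 in HTL, a log2 ratio of -0.03 (interval -1.89 to 1.76; exact binomial test, adjusted p = 1.0) that turned to 0.09 under TMM. Its exons overlap Trim17 on the same strand, so reads of these genes may not be told apart. The H2A class summed to 52.25 reads in control and 33.26 in HTL, a log2 ratio of -0.47 (interval -1.15 to 0.19). Its size depended on whether Hist1h2ap was counted, since that gene held 17.37 of the 33.26 HTL reads.

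Among the H2B genes, Hist3h2ba held the most reads of any cluster gene. It had 17.04 reads in control and 33 in HTL, a log2 ratio of 1.12 (interval 0.26 to 2.08). It was past 2-fold, and its adjusted p of 0.0142 (exact binomial test) did not pass the threshold. None of its 50-base windows occurred in another cluster gene, and its nearest annotated relative, Hist1h2bl, differs at 35 of 381 coding bases. Windows were compared among cluster genes only. The control value of Hist3h2ba and both values of Hist2h2be are fractional, and sharing of reads with sequences outside the clusters was not examined. Hist2h2be, also with no shared window and with no stem-loop match, had 8.96 and 8.32 reads, a log2 ratio of 0.01 (interval -1.56 to 1.56; exact binomial test, adjusted p = 1.0). Hist1h2bc had 3.82 and 7.44 reads, a log2 ratio of 0.91 (interval -0.98 to 3.21; exact binomial test, adjusted p = 0.462). The copies Hist1h2bq and Hist1h2br, whose coding sequences are identical, were both listed with 0 reads in control and 4.2 in HTL. The H2B class summed to 43.99 reads in control and 58.16 in HTL, a log2 ratio of 0.58 whose interval (-0.01 to 1.18) just held 0. Scaled by TMM, the H2B log2 ratio was 0.71 and its interval (0.12 to 1.31) did not hold 0. Without Hist3h2ba the H2B sum was 26.95 and 25.16 reads, a log2 ratio of 0.07 (interval -0.77 to 0.91). The Hist3 cluster, made up of Hist3h2a and Hist3h2ba, summed to 24.44 and 38.70 reads, a log2 ratio of 0.87 (interval 0.12 to 1.68).

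The H3 genes had the lowest ratio of the 5 classes. No H3 gene reached 10 reads. In control the 8 genes held between 0 and 7.75 reads and in HTL between 0 and 2.66, and 4 of them, Hist1h3c, Hist1h3f, Hist1h3h and Hist1h3i, had reads in control and 0 in HTL. Hist1h3e and Hist2h3b had 0 reads in control and 1.34 and 1 in HTL. These values and the 1.33 control reads of Hist1h3f lay under the floor of 3 reads, too few to be told from 0. The control reads of Hist1h3c (3.43) and Hist1h3i (4.03) lay just over that floor. The class summed to 20.99 reads in control and 6 in HTL, a log2 ratio of -1.55 (interval -3.22 to -0.26), or -1.41 relative to the median of all tested genes. The interval lay under 0, but it rested on 1 gene, since without Hist1h3h the log2 ratio was -0.88 (interval -2.61 to 0.57). The 6 H3 genes of the Hist1 cluster, put through the test across genes as 1 summed feature, had 18.68 and 4 reads, a log2 ratio of -1.94 and an adjusted p of 0.0114 (exact binomial test), which did not pass the threshold. These H3 genes were named here after their values were seen.

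The H3 genes also carry the codon for lysine 79, the histone residue that the study followed as a site of homocysteine attachment. The stretch below covers coding bases 220 to 252, with codon 80, counted from the start codon and giving lysine 79 of the mature protein, in capitals. It is shown because it separates the cluster genes from the replacement genes that code for the same residue.
Hist1h3b, and alike in all 6 Hist1 H3 genes: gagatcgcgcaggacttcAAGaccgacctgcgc
Hist2h3b: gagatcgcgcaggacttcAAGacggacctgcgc
H3f3a: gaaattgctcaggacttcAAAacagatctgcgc
H3f3b: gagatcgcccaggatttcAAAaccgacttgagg
The cluster genes use the codon AAG and the replacement genes AAA, both of which stand for lysine.

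Among the H4 genes, only Hist1h4b was tested. It had 7.39 reads in control and 3.78 in HTL, a log2 ratio of -0.57 (interval -2.84 to 1.35; exact binomial test, adjusted p = 0.646). It overlaps 4930558J22Rik on the opposite strand, and whether the counting used strand is not given in the sources used here. The H4 class summed to 26.01 reads in control and 13.99 in HTL, a log2 ratio of -0.69 (interval -1.76 to 0.28). Hist4h4, the only gene of its cluster, had 0 reads in control and 1 in HTL.

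Over all 43 genes the log2 ratio of the sums was -0.08 (interval -0.42 to 0.27) and 0.05 under TMM, so no difference in the total was detectable at this depth. The classes were spread around it, from -1.55 for H3 to 0.71 for H1. When genes of the same class and cluster were summed before testing, 0 of the 8 sums with enough reads were called, and 2 of them, the H3 genes of Hist1 and the H2B gene of Hist3, had an unadjusted p under 0.05 (exact binomial test).

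**Figure D2:**
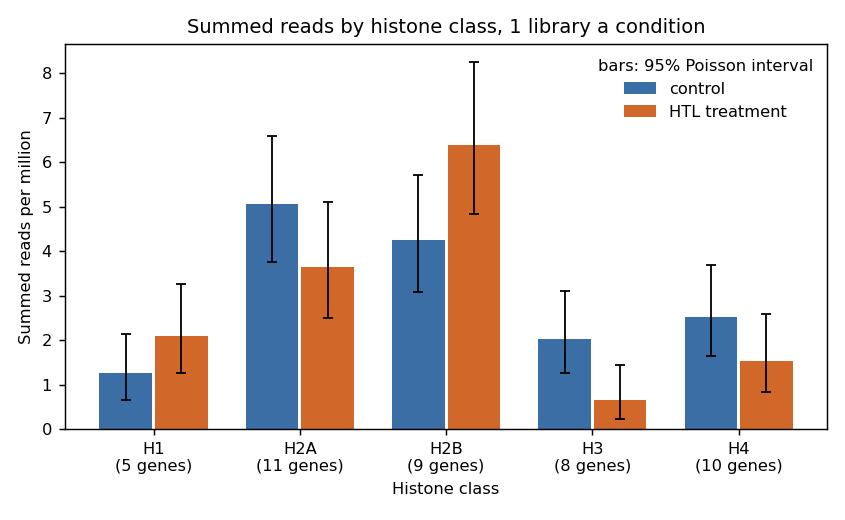
Summed reads in RPM, scaled to library totals (vertical axis), of the H1, H2A, H2B, H3 and H4 cluster genes in the control library (blue) and the HTL library (orange), with exact 95% Poisson intervals that cover counting error only. The H3 bars (2.03 and 0.659 RPM) and the H2B bars (4.25 and 6.39) differ in opposite directions, and the intervals of the 2 libraries overlap in every class.

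Other RNAs known to lack a poly(A) tail gave values to read beside those of the histone genes. The 14 such RNAs in the table other than Malat1 and Neat1 summed to 158.04 reads in control and 165.42 in HTL, a log2 ratio of 0.25 (interval -0.08 to 0.57). Rnu6 and Rn45s held most of these reads, and without them the other 12 summed to 28.58 and 21.28, a log2 ratio of -0.27 (interval -1.16 to 0.58). Both intervals held 0. Malat1, which ends in a triple helix in place of a tail, had 5554.21 and 3174.95 reads, a log2 ratio of -0.62 (exact binomial test, adjusted p = 2.39e-84), and was not past 2-fold.

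The replacement histone genes were far higher per length than the cluster genes. The 11 in the table had a median of 47.6 FPKM in control and 71.8 FPKM in HTL, against 0.42 and 0.24 FPKM for the cluster genes. All 11 were tested, and 0 were called in either direction by the rule above, beside 2.81% of all tested genes called higher and 7.98% called lower. Under TMM 2 of the 11 were called higher. An unadjusted exact binomial p under 0.05 was found for 8 of the 11. At an adjusted p of at most 0.001, with no limit on fold, 6 were higher and 1 was lower. Over all tested genes, 14.5% were higher and 24.1% lower at that adjusted p alone. The median log2 ratio of the 11 was 0.14, against -0.14 for all tested genes.

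H3f3b, which codes for the replacement histone H3.3, had 4716 reads in control and 7709 in HTL, a log2 ratio of 0.89 (interval 0.84 to 0.95; exact binomial test, adjusted p = 9.53e-253). It stayed under 2-fold scaled to the totals and passed it under TMM, at 1.02. H3f3a, the other H3.3 gene, had 6586.46 and 6933.57 reads, a log2 ratio of 0.26 (interval 0.21 to 0.31; exact binomial test, adjusted p = 1.65e-24).

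The linker histone gene H1f0 had 1137 and 1510 reads, a log2 ratio of 0.59 (interval 0.48 to 0.71; exact binomial test, adjusted p = 6.26e-25). H2afz, which codes for H2A.Z, had 4305 and 4161 reads, a log2 ratio of 0.14 (interval 0.07 to 0.20; exact binomial test, adjusted p = 4.36e-05). The centromeric H3 gene Cenpa had 1219 and 1172 reads, a log2 ratio of 0.13 (exact binomial test, adjusted p = 0.0527). H2afx, the DNA-damage H2A variant and the 1 replacement gene of the 10 searched with a stem-loop match, had 1007.89 reads in control and 513.83 in HTL, a log2 ratio of -0.79 (interval -0.94 to -0.63; exact binomial test, adjusted p = 1.04e-23). It was the only one of the 11 that was lower at that adjusted p.

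**Figure D3:**
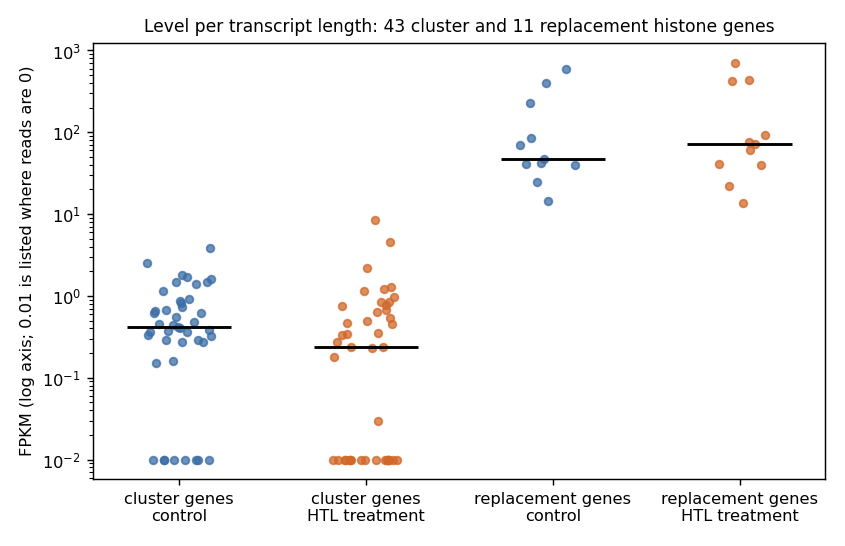
FPKM on a log axis of the 43 cluster genes and the 11 replacement histone genes in the control library (blue) and the HTL library (orange), each point 1 gene, with black lines at the medians. Cluster genes lie at or under 3.80 FPKM in control and 8.36 FPKM in HTL, points at 0.01 FPKM are genes with 0 reads, and the lowest replacement gene lies at 14.3 FPKM in control and 13.5 FPKM in HTL.

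Genes that make, end and degrade histone mRNAs were measured with far more reads than the histone genes themselves. Of 34 tested, 0 were called in either direction, beside 2.81% of all tested genes called higher and 7.98% called lower. An unadjusted exact binomial p under 0.05 was found for 24 of the 34. At an adjusted exact binomial p of at most 0.001 alone 5 were higher and 12 lower, beside 14.5% and 24.1% of all tested genes. The median log2 ratio was -0.15, close to that of all tested genes (-0.14). Npat had 1294.83 reads in control and 766 in HTL, a log2 ratio of -0.57 (interval -0.70 to -0.44; exact binomial test, adjusted p = 1.13e-17), and was under 2-fold. Slbp had 1164 and 1168 reads, a log2 ratio of 0.19 (interval 0.07 to 0.31; exact binomial test, adjusted p = 0.00351). The S-phase activator and the stem-loop binder of the pathway therefore had ratios of opposite sign.

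The genes of the U7 complex had fewer reads. Lsm11 had 199.64 and 131.59 reads, a log2 ratio of -0.41 (exact binomial test, adjusted p = 0.0221), and Lsm10 had 56 and 38, a log2 ratio of -0.37 (exact binomial test, adjusted p = 0.341). Zfp473, a zinc finger protein of the U7 complex, had 117 and 99.0 reads, a log2 ratio of -0.06 (exact binomial test, adjusted p = 0.844) that turned to 0.07 under TMM. None of these 3 passed the threshold.

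Histone chaperones and assembly factors, which carry new histones to DNA, gave 1 called higher and 3 called lower of 32 tested, beside 2.81% and 7.98% of all tested genes, with a median log2 ratio of -0.21. Under TMM 1 was called higher and 2 lower, and the median was -0.08. The largest called rise was Spty2d1, a histone H3-H4 chaperone gene, with 423 reads in control and 821 in HTL, a log2 ratio of 1.14 (exact binomial test, adjusted p = 7.34e-41). The largest called fall was Ubn2, a subunit of the HIRA complex that deposits H3.3, with 817.72 and 225.81 reads, a log2 ratio of -1.67 (exact binomial test, adjusted p = 3.16e-62). Of 35 S phase genes, 0 were called higher and 2 lower, with a median of -0.14, equal to that of all tested genes. The lowest was Tipin, a replication fork protein gene, with 207.05 and 59.38 reads, a log2 ratio of -1.62 (exact binomial test, adjusted p = 9.47e-16).

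**Figure D4:**
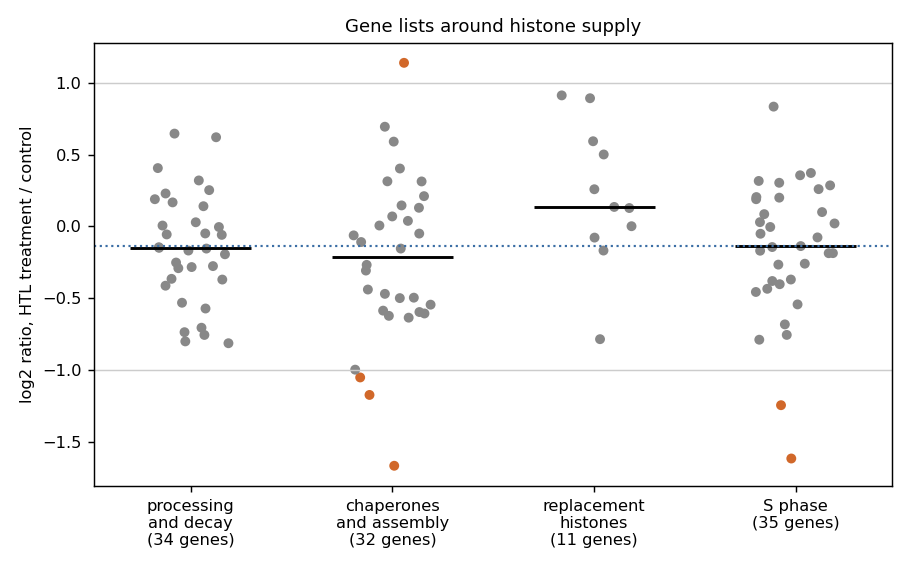
Log2 ratio (HTL over control, scaled to library totals) of each tested gene in 4 lists, with black lines at list medians, a dotted line at the median of all tested genes (-0.14) and grey lines at -1 and 1. Orange points passed the call rule: 1 higher and 3 lower among chaperones (2 lower under TMM), 2 lower among S phase genes and 0 among processing and replacement histone genes (2 replacement genes higher under TMM).

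Cell type markers were read in the same libraries. Over all tested genes 2.81% were called higher and 7.98% lower. Of 9 neural stem cell markers tested, 1 was called higher (Notch1, log2 ratio 1.08) and 3 lower, the lowest being Sox1 (log2 ratio -1.78), while Nes had 1617 and 1365 reads. Under TMM 2 of these were called lower, and the median of the 9 turned from -0.06 to 0.07. Fabp7 had 2 reads in each library, too few to test. Of 5 neuron markers 1 was called lower (Dcx, log2 ratio -1.40), of 3 glia markers 1 was called higher (Aldh1l1, log2 ratio 1.58), and of 5 mesenchymal, endothelial and immune markers 1 was called lower (Pdgfrb, log2 ratio -1.09), and 0 were under TMM. Col1a1 and Col1a2 of the last list each had 12 reads in control and 25 in HTL, past 2-fold the other way (log2 ratio 1.21, interval 0.20 to 2.37) and not called. Gfap was at 2 reads in control and 0 in HTL, and summed marker reads outside the neural stem cell list were 540.70 and 532.76 for neurons, 216.05 and 246.20 for glia and 192 and 125 for the last list. Their part in the histone values was not tested.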

How the data were processed

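RNA of 1 control and 1 HTL-treated NE4C culture was sequenced, and the titles of the samples gave the groups. The labels name an Illumina TruSeq RNA kit, a BGISEQ-500 sequencer and build mm9. The authors aligned filtered reads to mouse genome and gene sequences and deposited RSEM estimated counts per gene, not normalized. The FPKM values deposited by the authors are scaled to transcript length and depth, with 0.01 listed as the lowest value, and the deposited transcript length differs by gene. The mapper, annotation release and use of strand are not given in the sources used here. The columns of the authors' own comparison (log2 ratio, p-value and FDR) were not used.

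Estimated counts were rounded to whole numbers for testing. A two-sided exact binomial test set each gene's reads against the totals of the libraries. P-values were adjusted by Benjamini-Hochberg over 13442 genes with at least 10 reads in the 2 libraries together (SciPy 1.17.1, statsmodels 0.14.6, Python 3.11.15). Log2 ratios used 0.5 read added to each library, intervals are exact 95% Clopper-Pearson intervals, and a library at 0 was set to 3 reads to give a bound from the unrounded counts. Class sums were rounded after summing for ratios and intervals, and have no p. A call needed a log2 ratio of 1 or more in size and an adjusted p of 0.001 or less, the study's limits. Since reads carry no molecular identifiers and can be PCR copies, intervals and floors cover counting error only. The procedure was run on simulated data with counting error alone, which cannot show how it fares with variation between cultures. Alternatives were the TMM and upper quartile scalings and the exact test of edgeR 4.0.16 with an assumed coefficient of variation, DESeq2 1.42.0 size factors (R 4.3.3), other filters and priors, FPKM, and summed or left-out copies. Stem-loops and shared windows were found on NCBIM37 with GENCODE vM1.

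Members and gene lists were chosen with earlier results of these data known. Named genes were the members with at least 10 reads, the largest called rise and fall of each list, and Slbp, Npat, Lsm11, Lsm10, Zfp473, H2afz, H2afx, H3f3a, H3f3b, H1f0 and Cenpa. Other members and Malat1, Rnu6, Rn45s, Nes, Fabp7, Gfap, Col1a1 and Col1a2 were named after their values were seen.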

Additional observations from a re-analysis of the deposited data

How the results depend on the processing

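No paired analysis was possible because there was 1 library per condition. The call of Hist1h2ap held under the TMM, upper quartile and median-of-ratios scalings, with no filter, with 5 reads added and with an assumed coefficient of variation of 0.1. Coefficients of 0.2 and 0.4 in the exact test of edgeR left 0 histone cluster genes called, and 120 and 6 of all genes, against 1450 counting reads alone. Summing genes of the same class and cluster also left 0 called. With 1 added to FPKM and the fold rule alone, 2 cluster genes passed, 1 higher and 1 lower, and 852 of all genes did. A mean of at least 50 reads, or leaving out genes with fractional values, left no cluster gene to test. The median log2 ratio was 0.46 over 8 genes and -0.60 over all 43 with no filter, against -0.16 for all genes. With reads in both libraries for 18 of the 43, the value of -0.60 rests largely on the 0.5 read added. The H1 ratio went from 0.71 to -0.46 without Hist1h1c. The H2A ratio went from -0.47 to -1.49 without Hist1h2ap and to -1.15 without it and Hist1h2ag, the latter chosen after seeing the data, as was leaving Rnu6 and Rn45s out of the RNAs without a poly(A) tail. Leaving out Hist1h2ap removes HTL reads that could belong to remaining copies, so these H2A values show no fall of the others.

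Scaling moved the median of all tested genes by 0.13 (TMM), 0.14 (median of ratios) and 0.09 (upper quartile) on the log2 scale. Calls over all genes went from 378 higher and 1072 lower to 553 and 798 under TMM and 559 and 788 under median of ratios. The sum of all 43 genes went from -0.08 to 0.05, 0.06 and 0.02, its interval holding 0 each time. The H3 sum lay between -1.55 and -1.42 over the 4 scalings, its interval under 0 in each. H3f3b passed 2-fold at 1.02 (TMM) and 1.03 (median of ratios), 2 replacement genes were called under each of these, and Pdgfrb lost its call under every other scaling. Under each of the 3 other scalings 2 chaperone genes and 2 neural stem cell markers were called lower, against 3 and 3. The chaperone median went from -0.21 to between -0.12 and -0.07, and the stem cell marker median from -0.06 to between 0.03 and 0.08. The ratio of Hist3h2a turned to between 0.05 and 0.09. At these depths, genes with under 3 reads a library cannot be told from 0.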
